A study of Homo sapiens with 60 samples.

Results

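Keratins are the intermediate filament proteins of epithelial cells and hair, and the 8 genes described here are KRT75, KRT18, KRT8, KRT7, KRT19, KRT80, KRT34 and KRTAP1-5, of 60675 genes counted. They were picked by symbol after differences from vehicle had been seen in these same libraries, KRT75 being higher in Coptidis and Bupleuri and KRT18 lower in several extracts. Differences of these genes from the vehicle are therefore given as a description, without a test. The same holds for high against low dose, which uses the same high-dose libraries. The comparison of medium with low dose sets neither the high-dose nor the vehicle libraries against another group, and it was tested. The genes were picked with every dose in view, so this test is not fully independent of the choice. The high-dose and vehicle libraries do enter its estimate of spread, which all 55 fitted libraries share. The KRT18 and KRT8 calls were lost when only the 2 groups were fitted.

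A keratin filament is built from pairs of a type I and a type II chain. KRT8 (type II) and KRT18 (type I) form the classic pair of simple epithelia, in which KRT7 and KRT19 are further type II and type I partners. KRT75 belongs to the companion layer of the hair follicle, KRT34 is a type I hair keratin, and KRT80 is a type II keratin of several epithelia. KRTAP1-5 is a keratin-associated protein, one of the matrix proteins that embed the filaments of the hair fibre. Astrocytic cells are known for vimentin and GFAP filaments, though keratins are found in some cultured glioma lines.

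RNA was sequenced from SW1783 cells, a human astrocytoma line, after 24 h with vehicle (0.1% DMSO in the sample labels, 2% in the series text) or with a 70% ethanol extract. There were 8 extracts at a high, medium and low dose, the lower doses being 1/5 and 1/25 of the high one, and 60 libraries in all. The high dose was 14 µg/mL for Coptidis Rhizoma, 210 µg/mL for Bupleuri Radix, and 500 µg/mL for the rest. The rest were Cimicifugae Rhizoma and Zizyphi Fructus, the herbs Aconiti Lateralis Radix Preparata and Citri Unshius Pericarpium, and 2 multi-herb formulas, Banhasasim-tang and Yijung-tang. High doses under 500 µg/mL were set at the IC20, the concentration giving 20% inhibition. The vehicle, Citri, Cimicifugae, Bupleuri and Aconiti had 3 libraries a group, Coptidis, Zizyphi and Yijung-tang had 2, and each Banhasasim-tang dose had 1. All groups are of 1 cell line. Nothing states that replicates were separate cultures, so p-values measure the spread between these libraries, which may be technical. The extract libraries carry set numbers (11 to 14) that no vehicle library carries, so set and treatment cannot be told apart in a comparison with vehicle. The 3 doses of an extract share a set.

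Library totals ran from 15996140 to 30990226 counts in the 55 fitted libraries. Replicate 1 of high-dose Aconiti, which had the lowest total of all (11329295), and replicate 1 of low-dose Yijung-tang stood apart and were left out. In the left-out Yijung-tang library KRT18 was at 518 CPM (counts scaled to library size) and KRT7 at 1769, and in the left-out Aconiti library they were at 250.4 and 965, above their group mates. With these libraries the mean KRT18 level of low-dose Yijung-tang was 358 CPM ± 227 (SD, n = 2) in place of 197.7, and that of high-dose Aconiti 175 ± 65.5 (n = 3) in place of 137 ± 3.77 (n = 2). The astrocyte markers GFAP, AQP4 and FABP7 were at or near 0 (vehicle means 0.0412, 0.0158 and 0 CPM), while GJA1 was at 239.7 and SLC1A3 at 33.5 CPM. Collagen COL1A1 (3451 CPM) and fibronectin FN1 (5328 CPM) were abundant. The epithelial markers EPCAM and CDH1 were at 0.0190 and 0.0315 CPM.

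All 8 genes have a position on GRCh38 in the GENCODE v29 annotation, and the listed spans cover exons and introns. The type II genes and KRT18 lie together on chromosome 12: KRT80 at chr12:52168996-52192000 (minus strand), KRT7 at chr12:52232520-52252186 (plus), KRT75 at chr12:52424070-52434525 (minus), KRT8 at chr12:52897187-52949954 (minus) and KRT18 at chr12:52948871-52952901 (plus). The type I genes KRT34 (chr17:41377650-41382403) and KRT19 (chr17:41523617-41528308) and the associated protein gene KRTAP1-5 (chr17:41026026-41027202) lie on the minus strand of chromosome 17. The annotated ends of KRT8 and KRT18 overlap on opposite strands, and KRT7 overlaps its antisense gene KRT7-AS. The kit marks strand, but no source used here says whether counting used it, so reads in those overlaps are uncertain.

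RefSeq (GRCh38.p14) promoter entries were found for 4 of the 8 genes. The 250 bases that end just before each start are shown for these 4, the only members with an entry. Each is written 5′ to 3′ on the gene's own strand, minus in all cases: KRT75 chr12:52434372-52434621, KRT34 chr17:41382307-41382556, KRTAP1-5 chr17:41027209-41027458 and KRT8 chr12:52926470-52926719. One entry a gene was used. The KRT8 window lies wholly inside the KRT8 span listed above, so it ends at an inner start. Windows at other KRT8 starts were not searched. Capitals mark matches to the motifs named after the sequences.
KRT75: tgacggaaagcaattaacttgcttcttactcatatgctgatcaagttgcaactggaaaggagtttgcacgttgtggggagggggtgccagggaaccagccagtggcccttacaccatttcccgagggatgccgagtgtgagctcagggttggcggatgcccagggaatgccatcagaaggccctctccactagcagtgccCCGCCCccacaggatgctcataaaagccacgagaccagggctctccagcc
KRT34: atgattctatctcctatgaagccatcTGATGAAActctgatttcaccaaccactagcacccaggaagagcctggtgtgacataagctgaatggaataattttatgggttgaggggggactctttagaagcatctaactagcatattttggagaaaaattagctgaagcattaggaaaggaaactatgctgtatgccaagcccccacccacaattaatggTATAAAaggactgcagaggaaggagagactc
KRTAP1-5: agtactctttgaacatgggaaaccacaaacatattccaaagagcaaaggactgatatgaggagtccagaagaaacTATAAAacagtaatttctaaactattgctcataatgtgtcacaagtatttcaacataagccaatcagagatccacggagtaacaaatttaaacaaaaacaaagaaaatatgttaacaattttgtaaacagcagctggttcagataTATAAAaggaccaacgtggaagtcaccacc
KRT8: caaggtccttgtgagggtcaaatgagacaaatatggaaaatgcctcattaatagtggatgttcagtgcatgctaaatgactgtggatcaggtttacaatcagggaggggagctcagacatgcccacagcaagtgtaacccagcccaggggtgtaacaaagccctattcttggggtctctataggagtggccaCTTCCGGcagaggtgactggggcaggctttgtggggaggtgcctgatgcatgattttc
Both strands were searched for the TATA box TATAAA (in 10.7% of 35116 promoter windows of this length), the GC box GGGCGG (42.6%), the ETS core CCGGAAG (8.52%), the AP-1 site TGANTCA (6.57%), the E-box CACGTG (6.34%), the amino acid response core TGATGNAA (3.14%) and the TCF/LEF motif CTTTGAT (2.26%). KRT34 held TATAAA 31 bases and TGATGAAA 224 bases before its start, and KRTAP1-5 held TATAAA at 30 and 175 bases. KRT75 had none of these but for 1 GC box, on the opposite strand 50 bases before the start. The KRT8 window held the ETS core on the opposite strand at 58 bases. A match describes the letters only.

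In vehicle cells the level per kilobase of merged exon ran from KRT7, at 374 CPM per kb ± 3.796 (SD, n = 3), through KRT18 at 119 ± 2.51, KRT80 at 10.9 ± 0.789, KRT8 at 4.18 ± 0.0936 and KRTAP1-5 at 1.53 ± 0.325. KRT19 (0.211 ± 0.126), KRT34 (0.125 ± 0.107) and KRT75 (0.0803 ± 0.0798) followed, and their libraries overlapped. In levels per length, the abundant pair was thus KRT7 with KRT18. KRT8, the textbook partner of KRT18, was far below it. All 8 genes passed the filter on low counts, 5 of them with at least 0.418 CPM in all 55 libraries. A gene needed that level in 1 library to pass. KRT75 reached it in 19 libraries, 14 of them outside high-dose Coptidis and Bupleuri, and KRT19 in 21, all outside those 2 groups. KRT34 reached it in 5 libraries, of which 4 were at high-dose Coptidis or Bupleuri.

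KRT75, the companion-layer keratin, was nearly silent in vehicle cells and clearly counted at the high dose of Coptidis and of Bupleuri. The vehicle libraries held 0, 4 and 6 counts (0, 0.189 and 0.371 CPM). High-dose Coptidis held 317 and 308 counts (16.1 and 16.9 CPM), and high-dose Bupleuri 133, 178 and 158 (5.82, 6.44 and 6.58 CPM). The 2 groups did not overlap with each other or with any other group. In bulk RNA, more or fewer cells with a transcript and more or less of it per cell cannot be told apart.

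Medium-dose Coptidis had 18 and 17 KRT75 counts (0.782 and 0.767 CPM), and low-dose Coptidis 8 and 11 (0.325 and 0.452). Medium-dose Bupleuri had 12, 12 and 11 counts (0.577, 0.465 and 0.415 CPM), and its low dose 10, 6 and 10 (0.419, 0.258 and 0.354). So most of the KRT75 signal lay at the high dose, 5 times the medium one. The fitted log2 difference of high from low dose was 5.40 ± 0.32 (SE) in Coptidis and 4.17 ± 0.28 in Bupleuri. Against vehicle the same high doses gave 6.47 ± 0.32 and 5.07 ± 0.34, values that depend on the few vehicle counts. Leaving out single libraries moved the Coptidis value between 5.91 and 7.26 and the Bupleuri value between 4.52 and 5.86.

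The only other high KRT75 value was in the formula Banhasasim-tang, with 93 counts at the high dose (3.35 CPM, exact Poisson 95% interval 2.703 to 4.102, counting error only). Its medium dose had 22 counts (0.787 CPM, interval 0.493 to 1.19) and its low dose 10 (0.392 CPM, 0.188 to 0.721). One library a dose allows no test. In Yijung-tang both high-dose libraries (5 and 17 counts) were above the fitted low-dose one (5 counts) in CPM, as were 38.0% of all tested genes. In the order of group means Coptidis high, Bupleuri high and Banhasasim-tang high came first and were separate. From medium-dose Bupleuri (0.486 CPM) down, each group overlapped the next, to 0.109 CPM in high-dose Zizyphi. Medium against low dose, KRT75 did not pass the test in any extract. The log2 difference was 0.99 ± 0.45 in Coptidis (edgeR adjusted p = 0.158, 95% interval 0.08 to 1.91) and 0.47 ± 0.41 in Bupleuri (adjusted p = 0.747, interval -0.36 to 1.295).

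**Figure D1:**
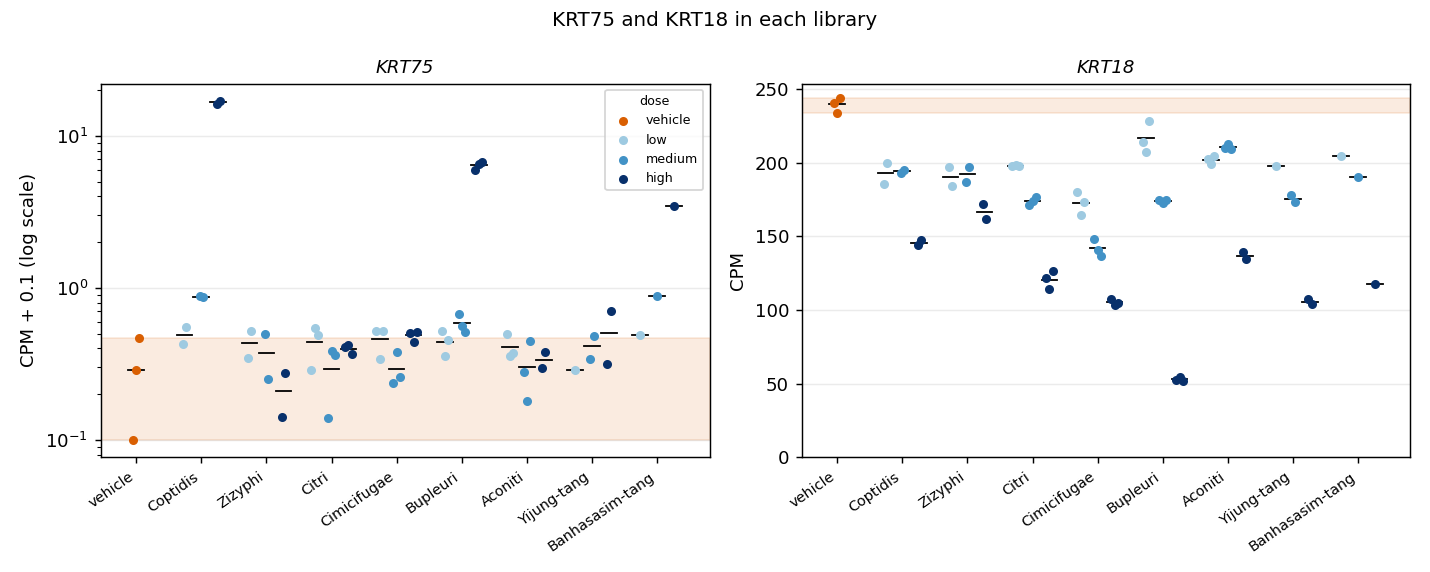
KRT75 (CPM + 0.1, log axis) and KRT18 (CPM, linear axis from 0) in each library but the 2 left out, by extract, with points coloured by dose, short lines at group means and a band over the range of the 3 vehicle libraries. KRT75 is high in high-dose Coptidis, Bupleuri and Banhasasim-tang, and every KRT18 point outside the vehicle lies below the vehicle band.

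KRT18, the type I chain of simple epithelia, was lower than in vehicle in every extract and at every dose. Vehicle libraries were at 240.8, 234.3 and 244.3 CPM. High-dose Bupleuri was the lowest group, at 52.7, 54.1 and 51.5 CPM, with a log2 difference of -2.18 ± 0.04 from vehicle. Not 1 of the extract libraries kept in the fit reached the lowest vehicle library, and the 3 Banhasasim-tang libraries (118, 190.4 and 205 CPM) were below it too. Every library below the vehicle range was also the case for 38.5% of all tested genes at high-dose Coptidis, 23.9% at Zizyphi, 22.0% at Citri, 23.3% at Cimicifugae, 24.5% at Bupleuri, 25.9% at Aconiti, 26.4% at Yijung-tang and 38.8% at Banhasasim-tang. At the medium dose the shares, in the same order of extracts, were 24.8%, 22.4%, 17.4%, 21.4%, 19.9%, 20.3%, 22.4% and 34.8%. At the low dose they were 20.8%, 22.1%, 16.7%, 17.9%, 17.3%, 19.2%, 30.7% and 31.0%. Since the rule chose KRT18 on this contrast and no set is shared with the vehicle, nothing is read from that count.

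Within an extract, where doses share a set, KRT18 was also lower at the high than at the low dose in all 7 replicated extracts. Bupleuri went from 214.1, 207.7 and 228.4 CPM at the low dose to 175.1, 173 and 174.6 at the medium dose, above the 3 high-dose values given, with no overlap between doses. Cimicifugae went from 180, 165 and 173 CPM through 149, 141 and 136 to 108, 104 and 105. Citri was at 197.6, 198.6 and 197.7 CPM at the low, 171.6, 174.1 and 176.6 at the medium and 121.5, 114.2 and 126.3 at the high dose. These 3 extracts stepped down at each dose without overlap. Every high-dose library lay below every low-dose one for 21.1% of all tested genes in Bupleuri, 13.6% in Cimicifugae, 15.4% in Citri, 19.6% in Aconiti, 37.8% in Yijung-tang, 41.4% in Coptidis and 24.0% in Zizyphi, and for KRT18 in all 7. In Yijung-tang the high dose held 107.2 and 103.9 CPM, the medium dose 178.2 and 173.4 and the remaining low-dose library 197.7. In Aconiti the medium dose (209.7 to 212.7 CPM) lay above the low dose (199.5 to 205), and in Coptidis and Zizyphi these doses overlapped. The log2 differences of high from low dose were -2.03 ± 0.04 in Bupleuri, -0.91 ± 0.06 in Yijung-tang, -0.71 ± 0.04 in both Cimicifugae and Citri, -0.56 ± 0.04 in Aconiti, -0.39 ± 0.05 in Coptidis and -0.19 ± 0.05 in Zizyphi. With both divergent libraries included, the Aconiti value was -0.21 and the Yijung-tang value -1.77.

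In the order of KRT18 group means the vehicle (239.8 CPM) came first and did not overlap with the next group, low-dose Bupleuri (216.7). The low and medium doses of Coptidis and Zizyphi, between 191 and 194 CPM, overlapped each with the next. High-dose Cimicifugae and Yijung-tang, both at 105.5 CPM, overlapped each other and stood above high-dose Bupleuri alone.

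The tested comparison gave 2 KRT18 calls. KRT18 fell from low to medium dose by 0.28 on the log2 scale in Cimicifugae (SE 0.04, edgeR adjusted p = 1.74e-05), where 0.220% of 18208 tested genes were called lower. With the replicate number as a block shared by all sets, the genes called went from 70 to 110. KRT18 then passed with an edgeR adjusted p of 1.17e-05. The check on pairing covered libraries within a set, so a block of set and replicate number together comes nearer to it. That block, chosen after seeing the data, gave 119 genes and an adjusted p of 6.225e-05 for KRT18. In Bupleuri KRT18 fell by 0.32 (SE 0.04, adjusted p = 1.10e-06), where 0.0714% of genes were called lower. Both calls were lost in an edgeR fit to only the 2 groups compared, at nearly the same size (-0.28, adjusted p = 0.246, and -0.31, adjusted p = 0.222), and with both divergent libraries included (adjusted p = 1 in both). In Citri KRT18 differed by -0.18 ± 0.04 (adjusted p = 0.0914), a value that did not pass.

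KRT8, the type II partner, was lowest in high-dose Bupleuri too, and its differences between high and low dose were nearer to 0 than those of KRT18 in all 7 replicated extracts. Vehicle libraries held 18.6, 19.4 and 19.4 CPM. High-dose Bupleuri held 8.83, 9.26 and 8.58, the medium dose 17.4, 18.6 and 18.1 and the low dose 21.9, 22.2 and 24.9. The high dose was below all other groups, and low-dose Bupleuri was above vehicle. The log2 difference of high from low dose was -1.36 ± 0.06, and of high from vehicle -1.10 ± 0.07. KRT8 fell from low to medium dose of Bupleuri by 0.35 (SE 0.05, edgeR adjusted p = 1.83e-04), a call lost in the fit to only the 2 groups (adjusted p = 0.499) and with both divergent libraries (adjusted p = 1).

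In 4 other extracts KRT8 was slightly lower at the high dose, with log2 differences from low of -0.40 ± 0.06 in Aconiti, -0.36 ± 0.08 in Yijung-tang, -0.28 ± 0.06 in Cimicifugae and -0.24 ± 0.05 in Citri. With both divergent libraries included the Aconiti value was -0.13 and the Yijung-tang value -1.36. In Coptidis (-0.02 ± 0.07) and Zizyphi (0.05 ± 0.07) the doses overlapped. KRT8 at high-dose Aconiti differed by -0.24 ± 0.06 from vehicle, and by 0.04 once its divergent library was included.

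The count of KRT8 per count of KRT18 gives the pair's balance within a library, free of scaling between libraries. It was 0.0798 ± 0.00277 (SD, n = 3) in vehicle and above the vehicle range in every extract library in the fit. The highest values were 0.168 ± 0.00232 in high-dose Bupleuri (n = 3), 0.167 in the high-dose Banhasasim-tang library, 0.155 ± 0.00870 in high-dose Yijung-tang (n = 2) and 0.1545 ± 0.00925 in high-dose Cimicifugae (n = 3). The low doses lay between 0.101 and 0.114. Within each replicated extract the high-dose libraries were all above the low-dose ones. This ratio is a description too, since KRT18 was chosen for being lower.

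**Figure D2:**
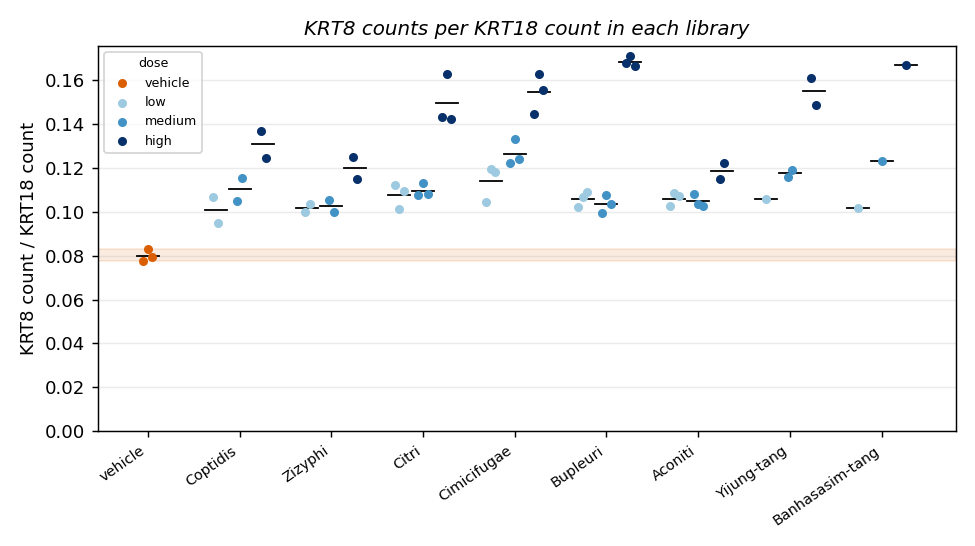
KRT8 count divided by KRT18 count in each library but the 2 left out (linear axis from 0), by extract, coloured by dose, with short lines at group means and a band over the range of the 3 vehicle libraries. Vehicle lies near 0.08 and each high-dose group above the low dose of its extract.

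Both genes have many processed pseudogenes that can share reads. The file lists 51 KRT8 and 67 KRT18 pseudogenes, and their counts came to 16.5% of KRT8 plus pseudogene counts in vehicle and 33.4% in high-dose Bupleuri, against 0.486% and 2.38% for KRT18. KRT8 values are thus the less certain. With pseudogene counts added, KRT8 differed by -1.04 between high and low Bupleuri and by -0.78 between high Bupleuri and vehicle. The high-against-low values of Citri and Cimicifugae became -0.13 and -0.19.

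KRT7, the most abundant of the 8 genes per length, was lowest in high-dose Bupleuri and Cimicifugae and higher in Coptidis at the medium dose. Vehicle libraries were at 663, 649.8 and 657 CPM. High-dose Bupleuri was at 338, 378 and 372 CPM and its low dose at 649.3, 642 and 725, a log2 difference of -0.88 ± 0.06. High-dose Cimicifugae was at 418, 416 and 435 CPM and its low dose at 539.7, 561 and 576, a difference of -0.40 ± 0.06. All high-dose libraries of these 2 extracts lay below all their low-dose libraries and below vehicle. In Zizyphi, Aconiti and Yijung-tang the high-dose libraries were also all below the low-dose ones. So were 21.1% of all tested genes in Bupleuri, 13.6% in Cimicifugae, 24.0% in Zizyphi, 19.6% in Aconiti and 37.8% in Yijung-tang. Below vehicle without overlap were 24.5% at high-dose Bupleuri and 23.3% at high-dose Cimicifugae. In Yijung-tang the difference was -0.35 ± 0.09, and -1.24 with its divergent library included.

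KRT7 rose from low (641 and 625 CPM) to medium dose (803 and 784 CPM) of Coptidis by 0.33 on the log2 scale (SE 0.08, edgeR adjusted p = 0.00173). The high dose, at 696 and 719 CPM, was between them. With both divergent libraries included this call was lost (0.33, adjusted p = 0.852). The antisense gene KRT7-AS was at 9.59 CPM ± 1.34 at the low and 13.9 ± 0.00746 at the medium dose (n = 2 each), against 7.62 ± 0.213 in vehicle (n = 3). Its part in the KRT7 value was not tested. The 3 Banhasasim-tang libraries held 743.5, 893 and 732 CPM from low to high dose, all above vehicle, as were 40.4% of all tested genes at its high dose.

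KRT80, a type II keratin, was higher with dose in Coptidis and lower in Bupleuri. In Coptidis it went from 48.4 and 44.3 CPM at the low dose through 65.2 and 72.5 at the medium to 164 and 181 at the high dose. In Bupleuri it was at 46.6, 45.55 and 45.9 CPM at the low dose and 22.7, 22.9 and 23.3 at the high dose. All high-dose libraries were also below the low-dose ones in Zizyphi (-0.25 on the log2 scale), Cimicifugae (-0.25) and Yijung-tang (-0.10), where 1 low-dose library was fitted. Of all tested genes, 39.3% lay above without overlap in Coptidis, and 24.0% in Zizyphi, 13.6% in Cimicifugae, 21.1% in Bupleuri and 37.8% in Yijung-tang lay below. Vehicle libraries held 46.1, 41.6 and 40.2 CPM. High-dose Bupleuri lay below them without overlap, as did 24.5% of all tested genes. The log2 differences of high from low were 1.91 ± 0.07 in Coptidis and -0.99 ± 0.07 in Bupleuri.

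From low to medium dose of Coptidis KRT80 rose by 0.58 (SE 0.07, edgeR adjusted p = 4.07e-08), and this call was kept in each alternative. In Bupleuri the same comparison gave -0.10 ± 0.06 (adjusted p = 0.567). Banhasasim-tang went from 51.4 through 72.2 to 98.8 CPM from low to high dose, with exact Poisson 95% intervals that did not overlap (48.7 to 54.3, 69.1 to 75.4 and 95.1 to 102.5, counting error only). High-dose Coptidis and then the 2 upper Banhasasim-tang doses led the order of KRT80 levels. Medium-dose Coptidis (68.8 CPM ± 5.14, n = 2) overlapped medium-dose Banhasasim-tang.

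**Figure D3:**
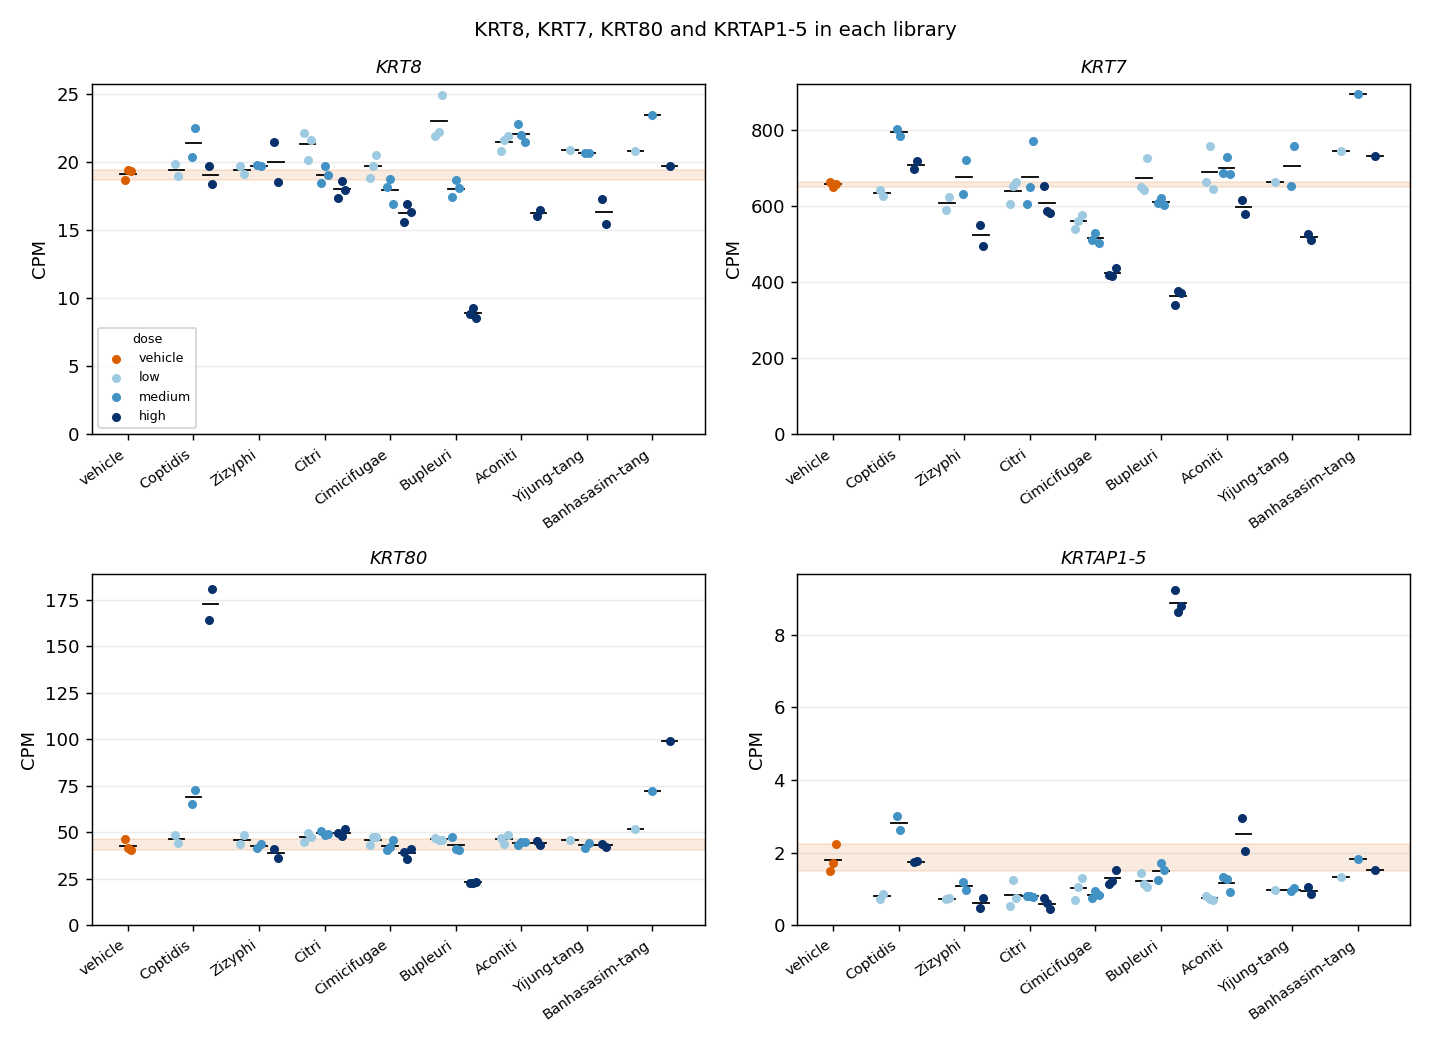
KRT8, KRT7, KRT80 and KRTAP1-5 in each library but the 2 left out (CPM, linear axes from 0), by extract, coloured by dose, with short lines at group means and bands over the range of the 3 vehicle libraries. KRT8, KRT7 and KRT80 are lowest in high-dose Bupleuri, where KRTAP1-5 is highest, and KRT80 is highest in high-dose Coptidis.

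KRTAP1-5, the hair matrix protein gene, was highest in high-dose Bupleuri. Vehicle libraries held 26, 36 and 36 counts (1.48, 1.70 and 2.23 CPM). High-dose Bupleuri held 211, 239 and 211 counts (9.23, 8.64 and 8.79 CPM), against 34, 26 and 30 (1.42, 1.12 and 1.06 CPM) at its low dose. The high-dose libraries were above all others, and the log2 difference of high from low was 2.90 ± 0.17. High-dose Aconiti was at 2.95 and 2.05 CPM (1.37 in the left-out library) and its low dose at 0.798, 0.724 and 0.690, a difference of 1.75 ± 0.24.

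In Coptidis KRTAP1-5 was highest at the medium dose: 0.732 and 0.864 CPM at the low, 3.00 and 2.62 at the medium and 1.73 and 1.76 at the high dose. It rose from low to medium dose by 1.82 (SE 0.26, edgeR adjusted p = 6.76e-07), a call kept in each alternative. The low dose of every replicated extract lay below the vehicle range in the fitted libraries, as did 16.7% to 30.7% of all tested genes by extract. So did the medium dose of Zizyphi, Citri, Cimicifugae, Aconiti and Yijung-tang (17.4% to 22.4% of genes). At the high dose Zizyphi, Citri and Yijung-tang did (22.0% to 26.4% of genes), down to 0.588 CPM ± 0.151 (n = 3) in Citri.

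KRT34, the hair keratin, had few counts. High-dose Coptidis held 30 and 16 (1.53 and 0.879 CPM) and high-dose Bupleuri 21, 21 and 7 (0.918, 0.759 and 0.292 CPM), against 3, 9 and 1 in vehicle (0.171, 0.425 and 0.0618 CPM). Replicate 3 of high-dose Bupleuri overlapped vehicle. The log2 differences of high from low were 2.86 ± 0.67 and 1.92 ± 0.57. The Banhasasim-tang libraries held 1, 6 and 14 counts from low to high dose. KRT19, a type I simple keratin, held between 2 and 21 counts in every library. Its group means ran from 0.140 CPM ± 0.0429 in high-dose Cimicifugae to 0.643 in medium-dose Banhasasim-tang, and most groups overlapped vehicle (0.294 ± 0.174). A difference in KRT19 was not detectable at this depth, with SEs of 0.46 to 0.78 on the log2 scale.

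Counted over the genes, 4 of 8 were called higher and 1 lower between high and low dose of Coptidis, where 32.7% and 31.4% of all tested genes were called. For Bupleuri the counts were 3 higher and 4 lower, with 20.6% and 17.4% of all genes. The high-dose counts are a description, and nothing is read from them. They include KRT75 and KRT18, which were chosen for such differences. They also include KRT34, which reached the filter level in 5 libraries, 4 of them at high-dose Coptidis or Bupleuri. Between medium and low dose, the comparison tested, 3 of 8 rose in Coptidis (7.83% of genes did), 2 fell in Bupleuri (0.0714%) and 1 fell in Cimicifugae (0.220%). None was called by edgeR in Zizyphi, Citri, Aconiti or Yijung-tang, where 0.00549%, 0.00549%, 0.0549% and 0% of genes were called. In those 4 extracts 1024, 1210, 957 and 796 genes had an unadjusted p under 0.05. DESeq2 called 4, 13, 14 and 2 genes there, 1 of them a member, in Citri. With its divergent library included, Yijung-tang had 3 members called and 2779 genes. The 56 tests of members in these 7 comparisons gave 6 calls.

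**Figure D4:**
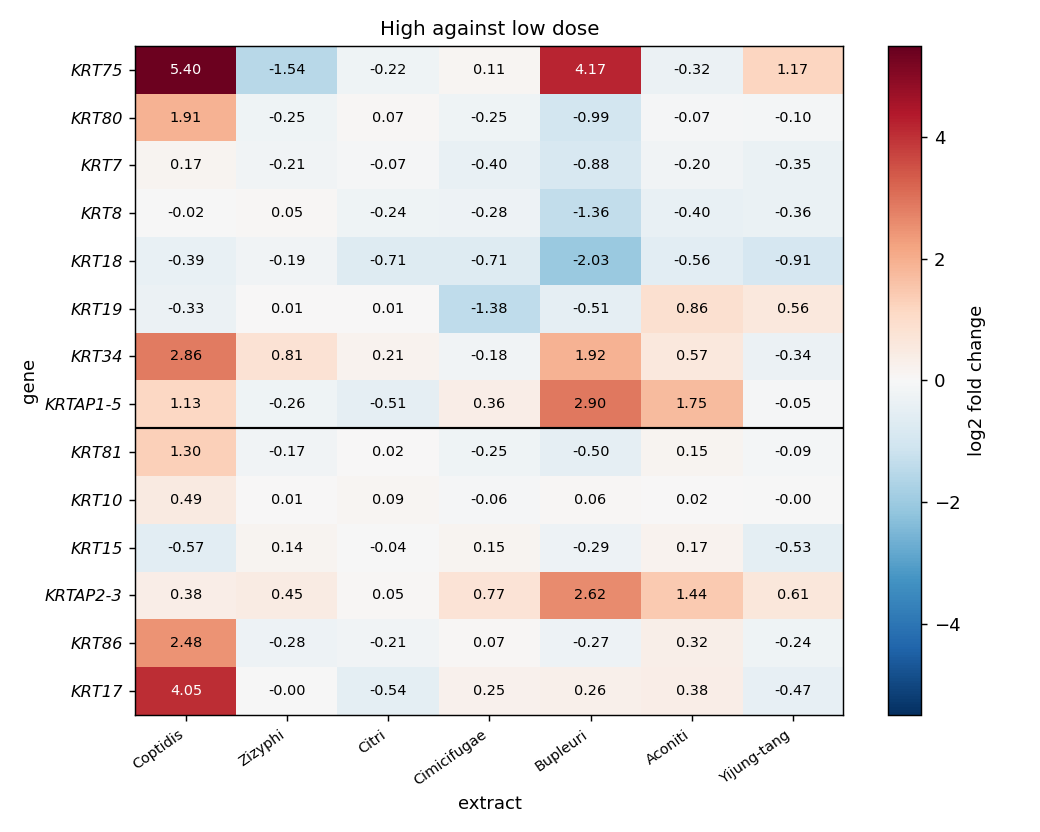
Fitted log2 fold change of high against low dose for the 8 genes (above the line) and the 6 other keratin and KRTAP genes averaging 1 CPM or more (below it), by extract. Colour runs from blue (lower at the high dose) to red (higher), with KRT75 at 5.40 in Coptidis and 4.17 in Bupleuri and KRT18 negative in all 7 extracts.

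The difference between extracts was tested itself for the 3 extracts with a call. These extracts were thus picked on the effects compared, and the p-values do not allow for that. The differences were not refitted under any alternative. The KRT18, KRT8 and KRT7 calls behind them were lost with both divergent libraries included. Coptidis differed from Bupleuri in the medium-against-low effect of 5 of the 8 genes (7.09% of all genes), by 0.68 ± 0.09 for KRT80 (adjusted p = 1.06e-06), 0.50 ± 0.09 for KRT8 (6.63e-05), 0.33 ± 0.06 for KRT18 (1.505e-04), 0.47 ± 0.10 for KRT7 (0.00110) and 1.49 ± 0.34 for KRTAP1-5 (0.00268). Coptidis differed from Cimicifugae in the same 5 genes (9.06% of all genes). Between Cimicifugae and Bupleuri none of the 8 passed (0.0275% of genes did), and the KRT18 difference was 0.03 ± 0.05 (adjusted p = 0.9485). For KRT75 the Coptidis minus Bupleuri difference was 0.52 ± 0.62 (adjusted p = 0.719), with an SE larger than the difference.

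**Figure D5:**
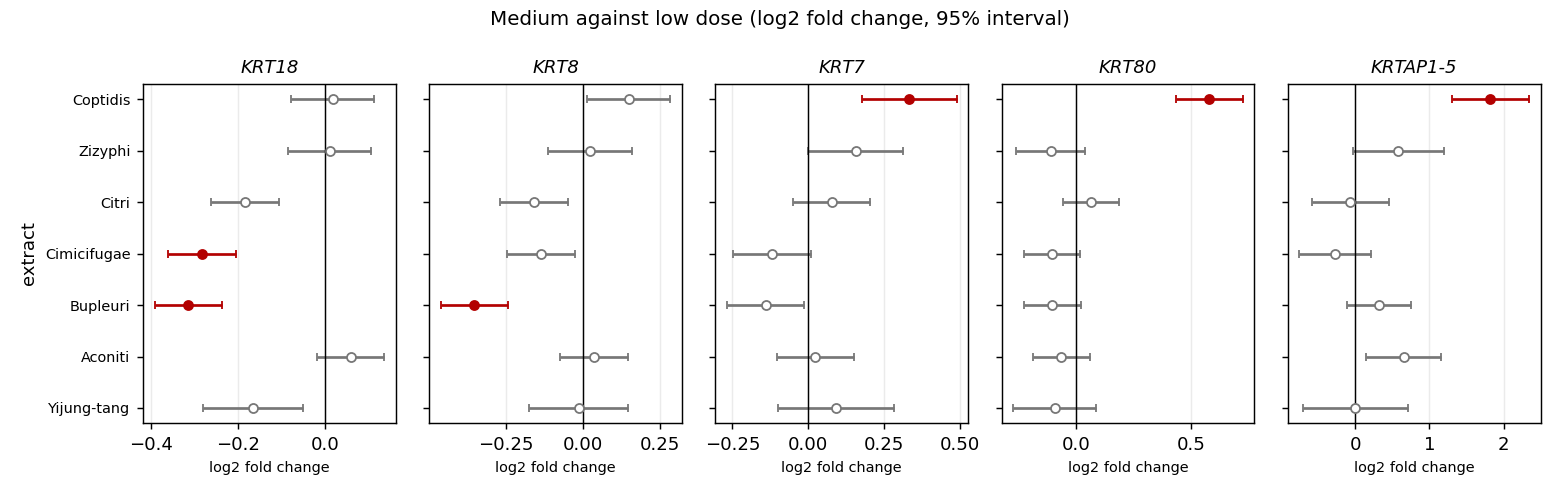
Log2 fold change of medium against low dose with its 95% interval for KRT18, KRT8, KRT7, KRT80 and KRTAP1-5 in the 7 replicated extracts, with filled red points for an adjusted p under 0.05. The filled points are KRT18 in Cimicifugae and Bupleuri, KRT8 in Bupleuri, and KRT7, KRT80 and KRTAP1-5 in Coptidis.

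Across the 22 fitted groups, KRT18 and KRT8 varied together (Pearson r = 0.92 of group mean log2 CPM), as did KRT18 and KRT7 (0.83) and KRT75 and KRT34 (0.86). KRT75 and KRT18 went apart (-0.51), but they were chosen for going opposite ways, so nothing is read from that sign. KRT34 reached the filter level in 5 libraries, 4 of them at high-dose Coptidis or Bupleuri. Elsewhere its r with KRT75 rests on few counts. These are descriptions: the doses of an extract share a set, and all genes of a group share its libraries and depth. Among 13878 genes, those most like KRT75 by the same measure included VEGFB (0.975), BACE2 (0.972), TMEM38B (0.966) and CYSTM1 (0.964). Those most like KRT18 were SLC27A2 (0.958), KRT8 (0.920), P3H2 (0.909), CAV1 (0.905) and CCDC80 (0.905). CYSTM1 for example was at 30.4 CPM in vehicle, 108.7 in high-dose Coptidis and 71.5 in high-dose Bupleuri, and SLC27A2 at 5.15, 3.00 and 1.499.

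Of 141 other protein-coding keratin and keratin-associated genes, 10 were tested. Between high and low dose of Coptidis 5 of the 10 rose and 1 fell, where 32.7% of all genes were called higher and 31.4% lower, with a median log2 difference of 0.45 against -0.02 for all genes. KRT17, a type I keratin of basal and injured epidermis, rose by 4.05 (SE 0.32, edgeR adjusted p = 4.05e-15), from 0.920 CPM ± 0.0361 to 15.2 ± 0.119 (n = 2 each), beside 0.804 ± 0.382 in vehicle. The hair keratins KRT86 and KRT81 rose by 2.48 (SE 0.23) and 1.298 (SE 0.11), KRT16, a keratin of injured epidermis, by 4.43 (SE 0.61) and KRT10 by 0.49 (SE 0.11). KRT15 fell by 0.57 (SE 0.19, adjusted p = 0.0116). Without replicate 2 of high-dose or replicate 3 of low-dose Coptidis no gene was called lower, and without replicate 3 of the high dose 2 were. KRT16, KRT23 and KRT14, with means under 1 CPM, were named after their values were seen. Close copies (KRT81 with KRT86, KRT14 with KRT16 and KRT17, and the KRTAP1 and KRTAP2 genes) can share reads, so their split is uncertain. In Bupleuri KRTAP2-3, a further hair matrix protein gene, rose by 2.62 (SE 0.16, adjusted p = 5.47e-18), from 1.44 CPM ± 0.173 to 8.85 ± 1.17 (n = 3 each). KRT23 rose by 1.56 (SE 0.50), from a mean of 0.1795 CPM at the low dose to 0.5177 at the high dose. Of these means only the high-dose one is above the filter level of 0.418 CPM, which 1 library had to reach. KRT23 may therefore have been tested because of its high-dose libraries, and its rise is a description. KRT81 fell by 0.50 (SE 0.09) and KRT14 by 1.34 (SE 0.36). The 2 that rose, KRT23 among them, and the 2 that fell are near the 20.6% and 17.4% of all genes called. The median over the 10 was -0.04 against 0.00 for all genes. KRT17 in Bupleuri did not pass, at 0.962 CPM ± 0.295 at the low and 1.16 ± 0.463 at the high dose (n = 3 each). With both divergent libraries included the Coptidis counts were 4 higher and 1 lower and the Bupleuri counts 2 higher and 1 lower.

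Genes that anchor keratin filaments, in desmosomes, hemidesmosomes and as cytolinkers, were counted from a list of 25, of which 19 were tested. In Coptidis 10 rose, 4 fell and 5 did not pass, with a median of 0.29 against -0.02 for all genes. These counts stand beside 32.7% of all genes called higher and 31.4% lower. Over the alternatives the higher calls ranged from 8 to 11 and the lower calls from 2 to 4. The list was chosen with earlier results known, so the counts are a description. Plakophilin PKP2, a desmosomal plaque protein, rose by 2.77 (SE 0.29, edgeR adjusted p = 1.56e-11), from 0.962 to 6.52 CPM, and the cytolinker EPPK1 rose by 1.02 (SE 0.27, adjusted p = 0.00117). The 4 that fell were the cytolinkers PLEC by 0.23 and DST by 0.49, TCHP by 0.75 and the hemidesmosomal collagen COL17A1 by 0.87. PLEC and DST were the most abundant of these, and the summed level of all 25 was 3483 CPM ± 94.6 at the high and 3653 ± 74.5 at the low dose (n = 2 each). In Bupleuri 4 rose (20.6% of all genes did), 2 fell (17.4%) and 13 did not pass, with a median of -0.00144 against 0.00216 for all genes. Periplakin PPL fell by 0.87 (SE 0.11) and the desmosomal cadherin DSG2 rose by 0.65 (SE 0.26, adjusted p = 0.0421). With both divergent libraries included, the 4 lower calls in Coptidis were 2 and the 4 higher calls in Bupleuri were 1. Without replicate 3 of high-dose or of low-dose Bupleuri the higher calls were 2 and 1. The lower calls were 4 without replicate 1, 2 or 3 of the low dose or replicate 2 of the high dose.

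Of 13 other intermediate filament genes, 8 were tested. In Coptidis 2 rose and 6 fell (32.7% and 31.4% of all genes did), with a median of -0.64 against -0.02 for all genes. In Bupleuri none rose, 6 fell and 2 did not pass (20.6% and 17.4% of all genes rose and fell), with a median of -0.21. The list's summed level went the other way from its count in Coptidis: it was 8500 CPM ± 8.53 at the high dose, 5456 ± 123.1 at the low dose (n = 2 each) and 5285 ± 241.6 in vehicle (n = 3). Vimentin VIM, which makes up most of that sum, rose there by 0.79 (SE 0.05), from 4627 to 7922 CPM, and peripherin PRPH, the other that rose, by 3.40 (SE 0.44), from 0.184 to 1.97 CPM. In Bupleuri VIM fell by 0.18 (SE 0.04), and the sum was 4889 CPM ± 38.7 at the high and 5612 ± 230.6 at the low dose (n = 3 each). Nestin NES fell by 3.01 (SE 0.18) in Coptidis, from 10.6 to 1.29 CPM, and by 0.76 (SE 0.10) in Bupleuri. Lamin LMNB1, of the nuclear lamina, fell by 2.88 (SE 0.07) and 0.93 (SE 0.04). The 6 lower calls in Bupleuri were 2 with both divergent libraries included.

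The hair follicle regulators (12 listed, 10 tested) had 3 members that rose and 6 that fell in Coptidis (median -0.96), where 32.7% and 31.4% of all genes did. The homeobox factors DLX3 and HOXC13 fell by 2.04 (SE 0.19) and 1.00 (SE 0.11), while FOXQ1 rose by 2.26 (SE 0.53), MSX1 by 0.65 (SE 0.20) and VDR by 0.34 (SE 0.06). Leaving out replicate 2 of low-dose Coptidis left 3 lower calls. In Bupleuri FOXQ1 rose by 2.16 (SE 0.39) and the vitamin D receptor VDR by 0.35 (SE 0.05), and DLX3 alone of the 10 tested fell, by 1.44 (SE 0.13). The shares of all genes there were 20.6% and 17.4%. DLX3 was at 8.04 CPM ± 0.825 in vehicle, 1.44 ± 0.301 in high-dose Coptidis and 2.33 ± 0.221 in high-dose Bupleuri.

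Markers of epithelial cells and keratinocytes were read beside the keratins. Of 18 epithelial markers 5 were tested, and the summed level of all 18 was 16.3 to 18.25 CPM in vehicle, 14.45 to 15.7 in high-dose Coptidis and 13.2 to 14.5 in high-dose Bupleuri. Claudin CLDN4 rose by 1.22 (SE 0.23) in Coptidis and 0.54 (SE 0.19) in Bupleuri, and the mucin MUC1 fell by 0.93 (SE 0.20) and 0.94 (SE 0.15). In all, 1 rose and 2 fell in Coptidis, and 1 rose and 3 fell in Bupleuri. The counts of this and the later marker lists stand beside 32.7% of all genes called higher and 31.4% lower in Coptidis, and 20.6% and 17.4% in Bupleuri. The 10 keratinocyte markers, 9 of them matched and 3 tested, summed to 4.44 to 5.26 CPM in vehicle, 2.39 to 3.19 in high-dose Coptidis and 4.91 to 6.25 in high-dose Bupleuri. SBSN rose by 1.16 (SE 0.31) and 1.535 (SE 0.22), while TP63, the basal keratinocyte factor, fell by 2.41 (SE 0.26) and 0.53 (SE 0.15). CALML5 was at 0 in all libraries, and IVL and LY6D were at 0 in vehicle. The part of these genes in the keratin values was not tested. With the divergent libraries, neither the CLDN4 nor the TP63 call in Bupleuri held, and the CLDN4 call was also lost without replicate 1 of the low dose or replicate 2 or 3 of the high dose.

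Among the mesenchymal markers, all 13 tested, 6 rose and 6 fell in Coptidis (32.7% and 31.4% of all genes did) and 3 rose and 8 fell in Bupleuri (20.6% and 17.4%). The transcription factors ZEB2 and ZEB1 rose in both, by 1.05 (SE 0.08) and 0.72 (SE 0.07) in Coptidis and by 0.61 (SE 0.07) and 0.46 (SE 0.06) in Bupleuri. Fibronectin FN1 rose by 0.53 (SE 0.07) in Coptidis, from 5360 to 7699 CPM, and SNAI2 by 0.78 (SE 0.04) in Bupleuri. COL1A2 fell by 1.62 (SE 0.04) and 1.31 (SE 0.03), COL1A1 by 2.14 (SE 0.05) in Coptidis and COL3A1 by 1.35 (SE 0.06) in Bupleuri. The list's summed level was 9985 CPM ± 159.8 at the high and 11770 ± 295.3 at the low dose of Coptidis (n = 2 each), and 8262 ± 279.2 and 11580 ± 1043 in Bupleuri (n = 3 each). The 6 higher calls in Coptidis were 3 with both divergent libraries included, and the 8 lower calls in Bupleuri were 5.

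Of 5 tested astrocyte markers 4 fell and 1 rose in Coptidis, and 2 fell and 1 rose in Bupleuri. The glutamate transporter SLC1A3 fell by 3.85 (SE 0.11) and 0.59 (SE 0.06), and ALDOC by 1.00 (SE 0.15) and 0.43 (SE 0.10). The marker that rose was in both extracts the gap junction gene GJA1, by 0.25 (SE 0.04) in Coptidis and by 0.55 (SE 0.04) in Bupleuri, from 206.5 CPM at the low dose. GJA1 made up most of the list's summed level, which was 327.5 CPM ± 7.23 at the high and 247.5 ± 7.20 at the low dose of Bupleuri (n = 3 each). In Coptidis the sum was 253.2 ± 13.2 and 250.5 ± 0.906 (n = 2 each), beside 280.6 ± 3.77 in vehicle (n = 3). The 4 lower calls were 2 with both divergent libraries included or without replicate 2 of high-dose or replicate 3 of low-dose Coptidis. With both included, none rose in Coptidis and 1 fell in Bupleuri.

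Markers of other cell types moved as well. Of 3 tested microglia and leukocyte markers 1 rose and 2 fell in both extracts, PTPRC falling by 1.67 (SE 0.13) in Coptidis and 1.96 (SE 0.11) in Bupleuri and CD68 rising by 0.67 (SE 0.08) and 0.61 (SE 0.06). TYROBP was at 0 in all libraries and AIF1 at 0 in vehicle, while the summed level, most of it CD68, was 147 to 153 CPM in vehicle, 268 to 280.5 in high-dose Coptidis and 251 to 275.5 in high-dose Bupleuri. Of 4 tested endothelial markers 1 rose and 2 fell in Coptidis and 1 rose in Bupleuri, KDR rising by 0.35 (SE 0.08) and 0.55 (SE 0.06), and CDH5 was at 0 in vehicle. Without any single library of high-dose or low-dose Coptidis, 1 endothelial marker fell there. The 2 lower microglia and leukocyte calls in Coptidis were 1 without replicate 2 of its high dose. Of 6 tested neuron and oligodendrocyte markers 2 rose and 1 fell in both extracts, beside 32.7% and 31.4% of all genes in Coptidis and 20.6% and 17.4% in Bupleuri. SYT1 rose by 1.22 (SE 0.07) in Coptidis, from 30.3 to 70.2 CPM, and by 0.29 (SE 0.06) in Bupleuri, and MBP by 0.56 (SE 0.10) and 0.30 (SE 0.09). SNAP25 fell by 2.68 (SE 0.08) and 0.70 (SE 0.04). The summed level of the list was 86.4 CPM ± 3.83 at the high and 68.7 ± 0.476 at the low dose of Coptidis (n = 2 each), and 63.4 ± 0.797 and 68.75 ± 3.18 in Bupleuri (n = 3 each). With both divergent libraries included no endothelial marker rose in Coptidis and no neuron or oligodendrocyte marker rose in Bupleuri. The part of these genes in the keratin values was not tested.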

How the data were processed

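RNA of SW1783 cells was sequenced on an MGI platform with a directional kit (100 bp paired-end, RNA integrity number above 7), per the labels' protocols. The authors deposited expected counts per gene, which are RSEM estimates and need not be whole (9.18% of values were not). FastQC 0.11.9, Trim Galore 0.6.5, STAR 2.7.3a, RSEM 1.3.3 and hg38/GRCh38 are named, per the submitters' processing notes. No source used here gives the annotation or the strand setting.

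Expected counts were rounded, and 1 edgeR 4.0.16 quasi-likelihood model (R 4.3.3, limma 3.58.1, TMM scaling) was fitted to 55 of the 60 libraries in 22 groups, with no replicate block. The 2 divergent libraries and the 3 unreplicated Banhasasim-tang libraries stayed outside. Genes passing filterByExpr with a minimum count of 10 were tested (18208), with Benjamini-Hochberg adjustment of p inside each of 35 comparisons and a threshold of 0.05. CPM values use the TMM factors. Symbols were matched for 56558 of 60675 gene IDs. Library totals of 15996140 to 30990226 counts in the fit limit KRT75, KRT34 and KRT19 outside their highest groups. No 2 replicates agreed within sampling noise (lowest chi-square per degree of freedom 1.93).

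The 8 genes and all lists were chosen with earlier results of these data known. Named genes were the 8 members, the 5 genes most correlated with KRT75 and with KRT18, the 2 genes of each list with the largest called change at a mean of at least 1 CPM, and other keratins at that level. One gene that this rule names is not reported here. Further list genes (VIM, PRPH, FOXQ1, MSX1, ZEB1, ZEB2, FN1, SNAI2, PLEC, DST, TCHP, COL17A1 and CD68 among them) were named after their values were seen. The lists were other intermediate filaments, keratin anchors, hair follicle regulators, and markers of epithelial cells, keratinocytes, mesenchymal cells, astrocytes, microglia and leukocytes, endothelium, and neurons and oligodendrocytes.

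Replicate numbers pair samples in medium against low Cimicifugae, where same-numbered libraries deviated together (r 0.157 to 0.501 over 3 pairs), by the rule of every r over 0.1. Medium against low Zizyphi met the rule too (r 0.218 in both of 2 pairs), but with 2 libraries a dose the pairs mirror each other. This pairing comes from the data, not the labels. Alternatives were DESeq2 size factors, no filter, both divergent libraries included, a replicate block, pseudogene counts added, a fit to only the 2 groups compared, the DESeq2 1.42.0 Wald test, and leaving out each replicate. The scripts were tested on simulated data.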

Additional observations from a re-analysis of the deposited data

Results flagged for a closer look

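The effect of medium against low dose differed between extracts for 5 of the 8 genes by a test of the difference itself (edgeR, adjusted over all genes). The extracts compared were picked by their calls in this same comparison, and no alternative was run for the differences. Coptidis minus Cimicifugae was 0.30 for KRT18 (adjusted p = 5.36e-04), 0.28 for KRT8 (adjusted p = 0.0301), 0.45 for KRT7 (adjusted p = 0.00152), 0.69 for KRT80 (adjusted p = 6.84e-07) and 2.09 for KRTAP1-5 (adjusted p = 3.67e-05). Coptidis minus Bupleuri was 0.33 for KRT18, 0.50 for KRT8, 0.47 for KRT7, 0.68 for KRT80 and 1.49 for KRTAP1-5, with the adjusted p-values given in the results.

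For 5 genes, all high-dose libraries of at least 1 extract were above all its low-dose libraries while in another extract all were below. For KRT75 they were above in Coptidis (log2 difference 5.40), Bupleuri (4.17) and Yijung-tang (1.17) and below in Zizyphi (-1.54). For KRT7 they were above in Coptidis (0.17) and below in Zizyphi (-0.21), Cimicifugae (-0.40), Bupleuri (-0.88), Aconiti (-0.20) and Yijung-tang (-0.35). For KRT19 they were above in Yijung-tang (0.56) and below in Cimicifugae (-1.38). For KRT80 they were above in Coptidis (1.91) and below in Zizyphi (-0.25), Cimicifugae (-0.25), Bupleuri (-0.99) and Yijung-tang (-0.0976). For KRT34 they were above in Coptidis (2.86), Zizyphi (0.81) and Bupleuri (1.92) and below in Yijung-tang (-0.34). Of all tested genes, 39.3% in Coptidis, 23.3% in Zizyphi, 21.9% in Bupleuri and 38.0% in Yijung-tang were above in this way. The shares below were 24.0% in Zizyphi, 13.6% in Cimicifugae, 21.1% in Bupleuri, 19.6% in Aconiti and 37.8% in Yijung-tang, which had 1 fitted low-dose library. Outside their highest groups KRT75, KRT19 and KRT34 rest on few counts. The share of all tested genes that met both conditions in different extracts was not computed. Nothing is therefore read from the count of 5 genes. The differences between extracts were not tested at the high dose.

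The high-dose Banhasasim-tang library, which enters no test, was above every vehicle library for 6 of the 8 genes: KRT75 (3.35 CPM), KRT8 (19.7 CPM, against at most 19.4), KRT7 (732 CPM, against at most 663), KRT19 (0.576 CPM), KRT80 (98.8 CPM) and KRT34 (0.504 CPM). Of all tested genes, 40.4% were above every vehicle library there. KRT19 and KRT34 rest on 16 and 14 counts.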

How the results depend on the processing

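Of the 6 tested members' calls, 67 of 74 alternative values kept direction and side of the threshold and 7 missed it, all with both divergent libraries included or with only the 2 groups fitted. The members called were then 0 in Cimicifugae and 0 in Bupleuri in both settings, in place of 1 and 2, and 1 in Bupleuri with DESeq2, which gives KRT8 no adjusted p. Citri had 1 with no filter and 1 with DESeq2, in place of 0, and Yijung-tang 3 with its divergent library, in place of 0. Leaving out single libraries left 3 in Coptidis, 1 in Cimicifugae, 2 in Bupleuri and 0 in the other 4. KRT8 at high-dose Aconiti against vehicle reversed from -0.24 to 0.0384 with the divergent library. The cause was not tested.

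Genes called in medium against low dose with both divergent libraries went from 2418 to 273 in Coptidis, 70 to 1 in Cimicifugae, 61 to 0 in Bupleuri, 10 to 1 in Aconiti and 0 to 2779 in Yijung-tang. With only the 2 groups they were 3 in Cimicifugae, 0 in Bupleuri, 23 in Aconiti and 30 in Yijung-tang, and with DESeq2 167 in Cimicifugae and 125 in Bupleuri. With no filter (36648 genes) they were 253, 347, 112, 134, 112 and 72 in Cimicifugae, Bupleuri, Aconiti, Zizyphi, Citri and Yijung-tang.

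With the replicate block KRT18 differed by -0.28 in Cimicifugae (edgeR adjusted p = 1.17e-05) and -0.32 in Bupleuri (7.31e-07), and KRT8 by -0.35 in Bupleuri (1.48e-04). The block changed no call of a member, nor did a block of set and replicate number together, chosen after seeing the data. Few counts limit KRT75, KRT34 and KRT19.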
